A study of Mus musculus with 30 samples.

Results

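The germline genes followed in cultured mouse embryonic stem cells were these 10: Dazl, Ddx4, Mael, Sycp1, Sycp2, Sycp3, Hormad1, Tex101, Asz1 and Slc25a31. They were chosen by name, as genes known to be held silent by promoter DNA methylation outside the germline, and were found through the symbols of their Ensembl gene identifiers. All 10 were present among the 55487 genes counted in long-term cultures and among the 52630 genes counted in a time course. After a filter on low counts, 10 of them remained among 16054 genes tested in the long-term cultures and 9 among 16049 genes tested in the time course. Asz1 was the gene lost from the time course. The filter asked for 0.638 CPM in at least 3 libraries of the long-term cultures and 0.34 CPM in 3 of the time course. Asz1 reached that level only in P20 2i/LIF, and Tex101 only in Serum/LIF and, in the time course, at 3 h. Both therefore had to differ between groups to be tested at all, so they are described by their counts, with no test, and with a counting interval only where neither group compared brought the gene past the filter, and the numbers of genes called are given for the other 8. The minus strand carries Dazl (chr17:50279395-50293636), Ddx4 (chr13:112598333-112652475), Mael (chr1:166201201-166238747), Sycp1 (chr3:102818499-102936100), Sycp2 (chr2:178345293-178407685), Tex101 (chr7:24668007-24676675) and Asz1 (chr6:18050964-18109061) in build GRCm38. Sycp3 (chr10:88459569-88473236), Hormad1 (chr3:95559677-95587671) and Slc25a31 (chr3:40708855-40726096) lie on the plus strand. Of the 10 genes, Sycp3 was the one whose exons overlap those of another annotated gene. DNA methylation itself was not measured in these libraries, so the genes are described here by their RNA.

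RNA-seq was performed on E14tg2a, a mouse embryonic stem cell (mESC) line, so every group is drawn from 1 line. In the long-term cultures, mESCs were kept for 10 passages (P10) or 20 passages (P20) in Serum/LIF, in Enhanced Metabolic Media (EMM) or in 2i/LIF, with 3 libraries per group and 18 libraries in all. EMM is Serum/LIF medium made without glucose and pyruvate and supplied with D-galactose, and 2i/LIF holds inhibitors of the kinases GSK3 and MEK. LIF, a cytokine that sustains self-renewal, was present in every group. In the time course, mESCs in Serum/LIF (0 h) were compared with mESCs moved to EMM for 3, 9 and 24 h. Each of these 4 groups had 3 libraries, 12 in all. The labels give the Serum/LIF control as 0 h, whereas the treatment description gives it 24 h in Serum/LIF. The study describes replicates as samples from independent experiments, and the 3 replicates of each group were treated as such. In the time course, the titles number the EMM samples 1 to 3 where the deposited columns number them 2 to 4, and the titles were followed.

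Germ cells protect their genome from transposons with small RNAs, remodel chromosomes for meiosis, and control the translation of stored messages. Genes for these tasks often carry CpG-rich promoters that gain DNA methylation around implantation and stay silent in somatic tissues. In mESCs a second layer of repression is known, in which a variant Polycomb complex with MGA, MAX and E2F6 binds E-box and E2F6 motifs at many of these promoters. Culture in 2i/LIF is known for low genome-wide DNA methylation, whereas serum cultures are more methylated. Among the genes followed here, Dazl encodes an RNA-binding regulator of translation, and Ddx4 (Vasa) an RNA helicase of the germ granules. Mael and Asz1 act in the same granules in transposon defence by piRNAs. Sycp1, Sycp2 and Sycp3 build the synaptonemal complex that joins homologous chromosomes, and Hormad1 marks chromosome axes that have not yet paired. Tex101 encodes a surface glycoprotein of male germ cells, and Slc25a31 an ADP/ATP carrier of germ cell mitochondria.

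The promoters are shown because germline promoters are where DNA methylation and sequence-specific repressors act. Whether the motifs in them go with the response of the genes was not tested. RefSeq promoters of build GRCm38.p6, each of 300 bases from 250 before to 50 after the RefSeq gene start, were matched for all 10 genes and searched on both strands for the E-box CACGTG and for the E2F6 motif TCCCGC. For Tex101 this window (chr7:24672001-24672300) lies inside the locus given above, away from the start of that locus. Of 32851 promoters, 7.15% held CACGTG, 20.0% held TCCCGC and 1.99% held both. Both motifs were found in 6 of the 10 promoters, namely those of Ddx4, Mael, Sycp1, Sycp3, Hormad1 and Slc25a31. Neither was found in the promoters of Dazl, Sycp2, Tex101 and Asz1, and a missing match says only that these letters are not in this window. The promoters held between 10 and 38 CpG dinucleotides, against a median of 7 over all promoters, and the Dazl promoter held 28. The ratio of observed to expected CpG was 0.363 for Sycp2, below the median of 0.384 over all promoters. For the other genes it lay between 0.666 (Sycp3) and 0.978 (Ddx4). Below, the promoters of Ddx4, Mael, Sycp3 and Dazl are written 5′ to 3′ on the strand of the gene, with capitals at the motifs, which read GCGGGA where the E2F6 motif lies on the other strand.
Ddx4 (chr13:112652261-112652560, minus strand): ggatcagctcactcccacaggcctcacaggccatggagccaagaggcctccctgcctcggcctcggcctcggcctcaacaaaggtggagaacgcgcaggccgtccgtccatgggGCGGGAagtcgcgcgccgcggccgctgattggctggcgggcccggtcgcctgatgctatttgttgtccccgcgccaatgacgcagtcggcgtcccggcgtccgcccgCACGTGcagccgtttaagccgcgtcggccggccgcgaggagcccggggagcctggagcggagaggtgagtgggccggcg
Mael (chr1:166238695-166238994, minus strand): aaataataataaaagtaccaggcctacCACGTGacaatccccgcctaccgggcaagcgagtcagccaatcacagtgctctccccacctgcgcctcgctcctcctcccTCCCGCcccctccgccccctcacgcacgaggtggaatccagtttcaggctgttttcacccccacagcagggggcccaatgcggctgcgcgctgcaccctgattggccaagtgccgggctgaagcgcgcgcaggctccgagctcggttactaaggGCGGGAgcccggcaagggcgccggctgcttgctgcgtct
Sycp3 (chr10:88459337-88459636, plus strand): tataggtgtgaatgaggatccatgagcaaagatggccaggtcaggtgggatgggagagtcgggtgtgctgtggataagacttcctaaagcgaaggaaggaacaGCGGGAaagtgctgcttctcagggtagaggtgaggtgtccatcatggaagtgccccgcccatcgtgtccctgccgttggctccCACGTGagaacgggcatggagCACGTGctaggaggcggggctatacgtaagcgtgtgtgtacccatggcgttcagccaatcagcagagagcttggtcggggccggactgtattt
Dazl (chr17:50293571-50293870, minus strand): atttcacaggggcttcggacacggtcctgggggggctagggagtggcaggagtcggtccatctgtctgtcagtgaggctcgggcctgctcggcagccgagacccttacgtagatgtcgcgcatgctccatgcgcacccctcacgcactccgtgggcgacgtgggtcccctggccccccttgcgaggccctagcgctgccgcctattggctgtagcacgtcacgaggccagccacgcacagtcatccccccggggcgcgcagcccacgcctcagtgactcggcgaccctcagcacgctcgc

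The genes were expressed at low levels, and the first question was which of them stood above the count floor. A gene was taken to be at the floor of a group when each of its 3 libraries held at most 3 counts. In the long-term cultures, 5 of 60 combinations of gene and group were at the floor, and all 5 belonged to Asz1 or Tex101. Asz1 was at the floor in P10 EMM (0 counts in total), P10 Serum/LIF (1 count) and P20 EMM (1 count). Tex101 was at the floor in P10 EMM and in P10 2i/LIF, with 5 counts in total in each. No gene was at the floor in every group of the long-term cultures. In the time course, 5 of 40 combinations were at the floor, namely Asz1 at all 4 times and Tex101 after 24 h in EMM. In Serum/LIF, 9 of the 10 genes were therefore above the floor in both experiments at 0 h, P10 and P20, and Asz1 was above it only at P20, with 10 counts in total. The other 8 genes were above the floor in all groups, although Mael, Sycp1 and Sycp2 had 13 to 16 counts in total in P10 2i/LIF.

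Levels of different genes were compared per length, as normalised reads per kilobase of exon in libraries scaled to a common size (RPKM, mean ± SD, n = 3). In P10 Serum/LIF, Sycp3 was the most abundant with 29.5 ± 4.90 RPKM. Ddx4 (6.97 ± 0.469), Mael (5.53 ± 1.34) and Hormad1 (2.44 ± 0.113) followed, and Dazl had 1.44 ± 0.158 RPKM. Slc25a31, Sycp1, Tex101 and Sycp2 lay between 0.493 and 0.655 RPKM, and Asz1 had 0.00873 RPKM. In P10 2i/LIF the order was different, with Dazl the most abundant at 12.8 ± 5.56 RPKM and Sycp3 at 3.48 ± 0.473. All values below are CPM, counts scaled to a common normalised library size, and compare 1 gene between groups.

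**Figure D1:**
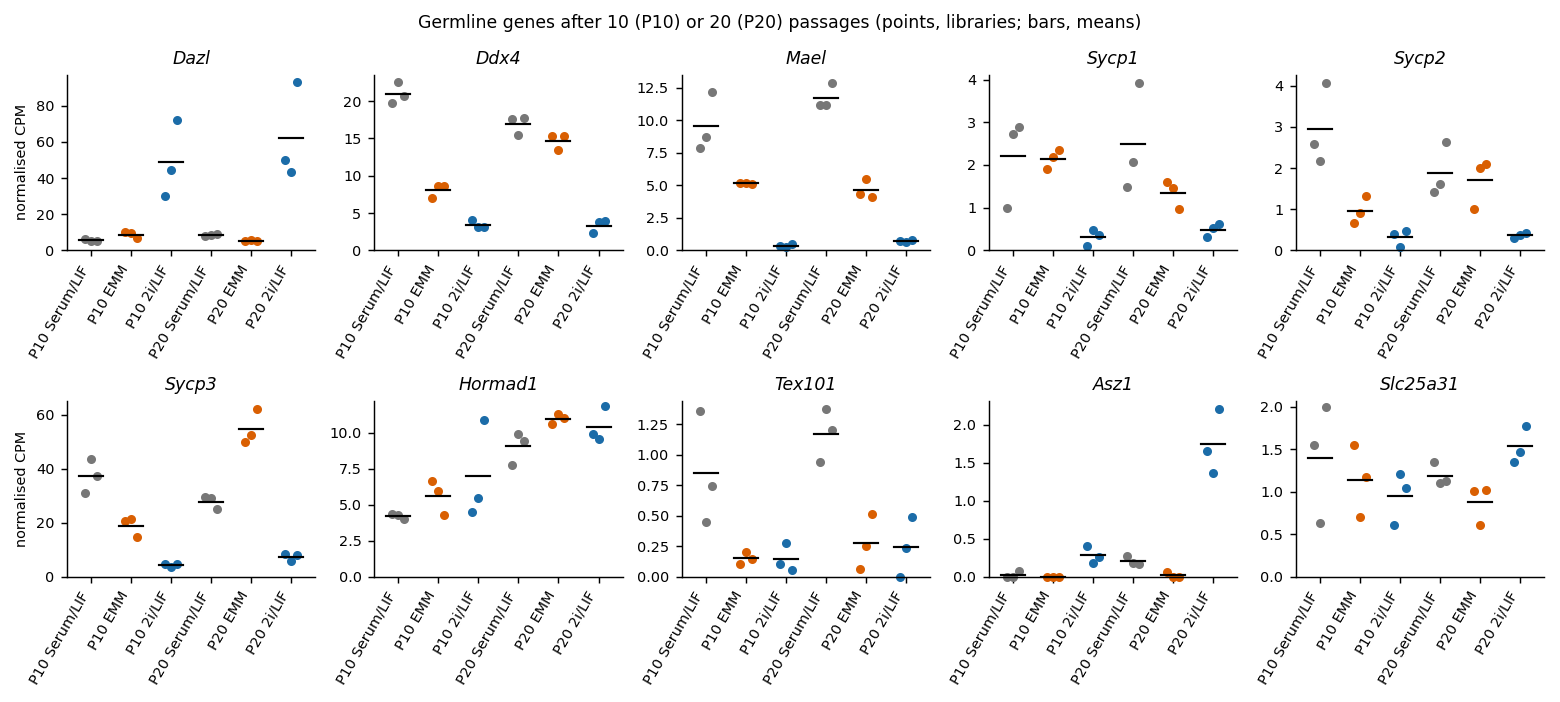
Normalised CPM of the 10 germline genes in each long-term culture (points, the 3 libraries of a group; bars, group means; each panel has its own axis from 0). The Dazl libraries in 2i/LIF lie between 30.2 and 92.9 CPM, above all others, whereas the Mael libraries in 2i/LIF lie below 0.80 CPM.

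The depth of the long-term libraries ran from 6944904 to 27912928 counts and that of the time-course libraries from 24074132 to 35301962. The shallowest library, replicate 1 of P20 2i/LIF, also stood apart from its replicates, with a chi-square per degree of freedom of 49.6 and 57.6 against them, where they had 14.7 against each other. Without it, the 6 of the 8 genes called at P20 in 2i/LIF against Serum/LIF and the 5 called in EMM against 2i/LIF were still called. Pluripotency markers were abundant in every group, with a sum over 6 markers from 3502 to 6727 CPM in the long-term cultures and from 3883 to 4452 CPM in the time course. Markers of spermatids and testis somatic cells were near 0, with a sum over 8 markers of at most 3.91 CPM in any library, and Prm2 was at 0 in every group. The 1 marker of that list tested in the long-term cultures, the Sertoli cell gene Amh, was higher in 2i/LIF than in Serum/LIF. It had 1.31 against 0.424 CPM at P10 (log2 fold change 1.66) and 0.608 against 0.0305 CPM at P20 (3.59), levels in the range of the scarcer germline genes followed here. Its Serum/LIF means lie below the 0.638 CPM of the filter, so its passing leaned on 2i/LIF. As for Asz1 and Tex101, no test is given. Markers of fibroblasts did differ with the medium. Their sum over 7 markers was 146 to 463 CPM in the long-term Serum/LIF libraries, 12.3 to 24.7 CPM in EMM and 5.58 to 7.95 CPM in 2i/LIF, led in Serum/LIF by Col1a1 with a mean of 121 CPM at P10 against 0.694 CPM in P10 EMM and 0.407 CPM in P10 2i/LIF. Thy1, which other cells also express, went the other way in P10 EMM, with 19.6 CPM against 8.97 CPM in P10 Serum/LIF, and made up most of the P10 EMM sum. Of the 5 markers tested, 4 were called lower and 1, Thy1, higher in P10 EMM, where 10.5% and 6.67% of all genes were called, and 4 were lower in P10 2i/LIF, against 14.8% of all genes. The part of these cells in the results on the germline genes was not tested.

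The first comparison asked how the genes differed between 2i/LIF and Serum/LIF. Dazl was higher in 2i/LIF, whereas the helicase gene Ddx4, the piRNA gene Mael and the 3 synaptonemal complex genes of the set were lower. At P10, 1 of the 8 genes was called higher and 5 lower by edgeR's quasi-likelihood test, which required a log2 fold change beyond 1 in either direction and a Benjamini-Hochberg adjusted p under 0.01 over all genes. Over all 16054 genes, 11.6% were called higher and 14.8% lower. At P20, 1 was again called higher and 5 lower, where 6.77% and 15.5% of all genes were called. In bulk libraries, fewer cells that express a gene and less RNA of it per cell cannot be told apart.

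Dazl showed the clearest rise. The P10 2i/LIF libraries had 30.2, 44.6 and 72.0 CPM and the P10 Serum/LIF libraries 6.18, 5.08 and 5.19 CPM. The P20 2i/LIF libraries had 49.8, 43.1 and 92.9 CPM and the P20 Serum/LIF libraries 7.74, 8.41 and 9.05 CPM. The groups did not overlap at either passage, but the 2i/LIF libraries also spread widely among themselves. The log2 fold change was 3.17 ± 0.30 (SE, adjusted p = 5.33e-08, edgeR) at P10 and 2.89 ± 0.29 (adjusted p = 1.26e-07) at P20.

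Asz1 had few counts outside P20 2i/LIF. It had 11 counts over the 3 libraries of P10 2i/LIF against 1 in P10 Serum/LIF, a ratio of 12.5 after scaling for depth, with a 95% counting interval from 1.82 to 539. At P20 the 2i/LIF libraries had 1.66, 1.37 and 2.21 CPM and the Serum/LIF libraries 0.269, 0.183 and 0.160 CPM, which is 76 against 10 counts. The 2i/LIF libraries lay above all Serum/LIF libraries at P20, which is no test, since only P20 2i/LIF brought the gene past the filter.

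Among the genes that were lower, Mael showed the largest log2 fold change in size at both passages. Its P10 2i/LIF libraries had 0.301, 0.279 and 0.522 CPM and its P10 Serum/LIF libraries 7.84, 8.70 and 12.2 CPM, a log2 fold change of -4.57 ± 0.26 (adjusted p = 5.57e-11, edgeR). At P20 the 2i/LIF libraries had 0.752, 0.662 and 0.797 CPM and the Serum/LIF libraries 11.2, 11.2 and 12.9 CPM, with a log2 fold change of -3.99 ± 0.23 (adjusted p = 1.09e-10). Mael was thus detected in every 2i/LIF library, with 3 to 14 counts, but at a small part of its level in Serum/LIF.

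Ddx4 had 4.12, 3.07 and 3.18 CPM in P10 2i/LIF and 19.8, 22.6 and 20.7 CPM in P10 Serum/LIF. At P20 it had 2.26, 3.74 and 3.92 CPM in 2i/LIF and 17.6, 15.4 and 17.8 CPM in Serum/LIF. The groups did not overlap and the replicates were close. The log2 fold change was -2.62 ± 0.16 (adjusted p = 1.83e-10, edgeR) at P10 and -2.28 ± 0.16 (adjusted p = 1.46e-09) at P20.

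The 3 synaptonemal complex genes of the set were each lower. Other genes of the complex did not all go with them, as Syce2 had 55.4 CPM in P20 2i/LIF and 41.6 CPM in P20 Serum/LIF. Sycp3, an axial element gene, had 4.62, 3.72 and 4.85 CPM in P10 2i/LIF against 31.1, 43.5 and 37.3 CPM in P10 Serum/LIF, a log2 fold change of -3.07 ± 0.18 (adjusted p = 1.09e-10, edgeR). At P20 its 8.27, 5.63 and 7.97 CPM in 2i/LIF stood against 29.4, 29.0 and 25.0 CPM in Serum/LIF, a log2 fold change of -1.97 ± 0.17 (adjusted p = 2.49e-08). Part of Sycp3, 660 of its 1264 exon bases, overlaps exons of Chpt1, a phospholipid synthesis gene on the opposite strand. The long-term libraries were made with a directional kit, but whether counting used strand is not given in the sources used here, so reads from the shared bases may have been assigned to either gene. Chpt1 itself had 14.3 ± 2.85 CPM in P10 2i/LIF and 8.36 ± 0.0789 CPM in P10 Serum/LIF (SD, n = 3), opposite in order to Sycp3.

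Sycp1, the transverse filament gene, had 0.101, 0.465 and 0.365 CPM in P10 2i/LIF and 0.988, 2.73 and 2.89 CPM in P10 Serum/LIF. Its log2 fold change was -2.74 ± 0.52 (adjusted p = 0.000184, edgeR) at P10 and -2.25 ± 0.48 (adjusted p = 0.000617) at P20. Sycp2, a further axial element gene, had 0.402, 0.0930 and 0.469 CPM in P10 2i/LIF and 2.59, 2.16 and 4.07 CPM in P10 Serum/LIF. Its log2 fold change was -3.07 ± 0.46 (adjusted p = 1.52e-05) at P10 and -2.26 ± 0.46 (adjusted p = 0.000435) at P20. For both genes the 2i/LIF libraries lay below all Serum/LIF libraries of the same passage.

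Tex101 had 0.101, 0.279 and 0.0522 CPM in P10 2i/LIF and 1.36, 0.445 and 0.741 CPM in P10 Serum/LIF. This is 5 against 39 counts. At P20 it had 13 counts in 2i/LIF and 59 in Serum/LIF.

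Hormad1 and Slc25a31 were not called at either passage. Hormad1 had 4.52, 5.49 and 10.9 CPM in P10 2i/LIF and 4.38, 4.26 and 4.0 CPM in P10 Serum/LIF, and 1 of the 2i/LIF libraries was well above the others. The log2 fold change was 0.77 ± 0.25 at P10 (adjusted p = 0.0114, edgeR) and 0.21 ± 0.23 at P20 (adjusted p = 0.467). For Slc25a31 the values were -0.52 ± 0.41 at P10 (adjusted p = 0.283) and 0.39 ± 0.39 at P20 (adjusted p = 0.422).

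**Figure D2:**
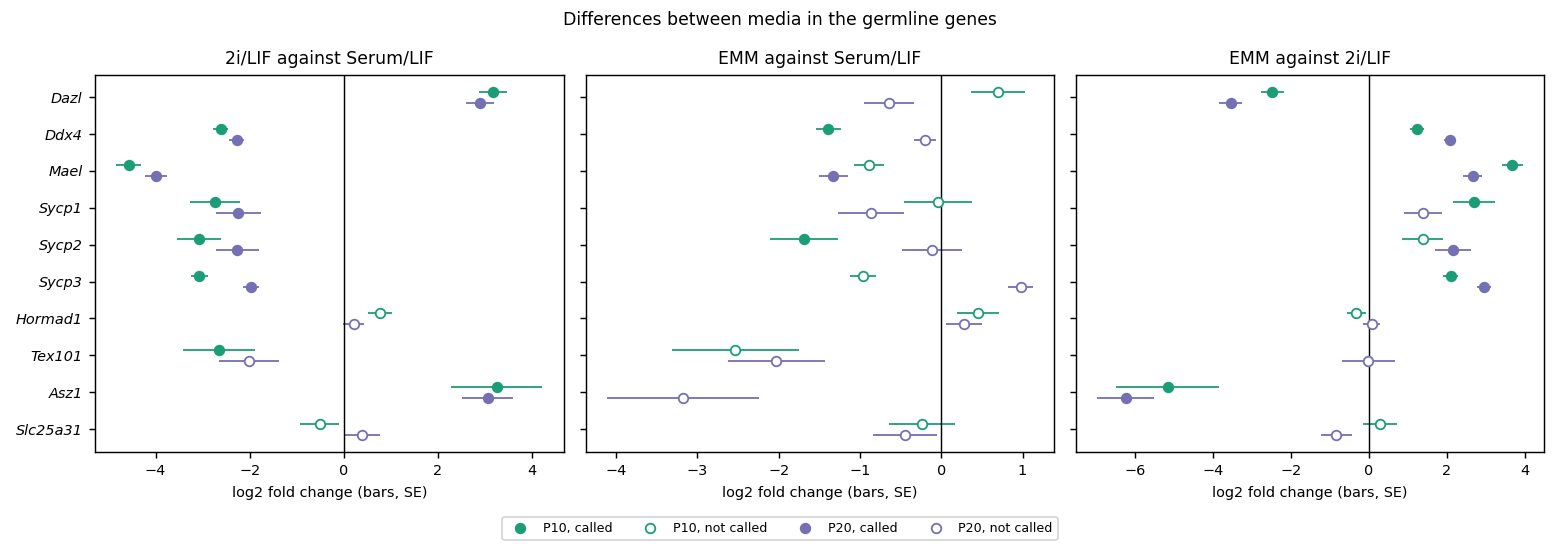
Log2 fold change (x axis, with SE bars) of each gene between media at P10 and P20; filled points passed both thresholds, and no point is drawn where both groups are at the count floor. Dazl lies right of 0 in 2i/LIF against Serum/LIF, and Mael lies farthest left there, at -4.57 and -3.99; the points of Asz1 and Tex101 are no test, since the filter on low counts chose these genes by their difference, and against groups at the floor they depend on the prior count of the fit.

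The second comparison asked whether long-term EMM changed the same genes relative to Serum/LIF. Here few genes passed the test, and the genes that did were lower. At P10, 0 of the 8 genes were called higher and 2 lower, Ddx4 and Sycp2, where 6.67% and 10.5% of all genes were called. At P20, 0 were called higher and 1 lower, Mael, where 3.44% and 6.19% of all genes were called. With 8 genes, these counts are near the background over all genes and are no result about the set. At the adjusted p alone, 18.7% of all genes were lower in EMM at P10 and 13.6% higher at P20, which is the background for the values below that passed only that threshold. Dazl was not called higher in EMM at either passage.

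Ddx4 had 7.05, 8.68 and 8.65 CPM in P10 EMM, below every P10 Serum/LIF library, with a log2 fold change of -1.39 ± 0.15 (adjusted p = 5.29e-07, edgeR). At P20 it had 15.4, 13.4 and 15.3 CPM in EMM, next to the lowest Serum/LIF library at 15.4 CPM, and the log2 fold change was -0.20 ± 0.14 (adjusted p = 0.272). The change of this difference between passages was itself called, with a log2 value of 1.19 ± 0.20 (adjusted p = 0.000333), where 5.06% of all genes were called in this direction and 3.34% in the other.

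Sycp3 went from one side of Serum/LIF to the other. It had 20.7, 21.3 and 14.5 CPM in P10 EMM, below Serum/LIF, and 49.7, 52.3 and 62.1 CPM in P20 EMM, above it. The log2 fold changes of -0.97 ± 0.16 (adjusted p = 6.03e-05, edgeR) at P10 and 0.98 ± 0.15 (adjusted p = 5.94e-05) at P20 passed the adjusted p but not the fold threshold. Both lie close to that threshold. Sycp3 passed it at P10 with DESeq2, with library totals alone (-1.07), with either other filter (both -1.04) and without P10 EMM replicate 1 or 2 or P10 Serum/LIF replicate 1, and at P20 without P20 EMM replicate 1 or 2 or P20 Serum/LIF replicate 1 or 2 (1.01 to 1.04). The difference between passages was called, with a log2 value of 1.94 ± 0.22 (adjusted p = 3.75e-06). Chpt1, which shares bases with Sycp3, had 10.5 ± 0.905 CPM in P10 EMM and 11.7 ± 0.406 CPM in P20 EMM.

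Mael had 5.15, 5.19 and 5.13 CPM in P10 EMM and 4.35, 5.48 and 4.09 CPM in P20 EMM, below every Serum/LIF library. The log2 fold change of -0.89 ± 0.19 at P10 passed the adjusted p (0.000641, edgeR) but not the fold threshold, which it passed without P10 Serum/LIF replicate 1, and that of -1.33 ± 0.18 at P20 passed both (adjusted p = 1.31e-05). Sycp2 had 0.669, 0.898 and 1.32 CPM in P10 EMM, with a log2 fold change of -1.69 ± 0.42 (adjusted p = 0.00254). The Sycp2 call was lost without P10 EMM replicate 1 (adjusted p = 0.024) or 2 (0.0115) or without P10 Serum/LIF replicate 3 (0.0182), and at P20 the log2 fold change was -0.11 ± 0.37 (adjusted p = 0.843).

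Dazl had 9.93, 9.38 and 6.75 CPM in P10 EMM and 5.12, 5.52 and 5.39 CPM in P20 EMM. It lay above Serum/LIF at P10 (log2 fold change 0.70 ± 0.33, adjusted p = 0.0863, edgeR) and below it at P20 (-0.65 ± 0.31, adjusted p = 0.107), and neither passed the test. The difference between passages, -1.34 ± 0.45, did not pass either (adjusted p = 0.0351). Tex101 had 5 counts in P10 EMM against 39 in P10 Serum/LIF, and 19 in P20 EMM against 59 in P20 Serum/LIF. Asz1 was at the floor in both P10 groups. At P20 it had 10 counts in Serum/LIF against 1 in EMM, a ratio of 13.5 with a counting interval from 1.91 to 584. Sycp1, Hormad1 and Slc25a31 had log2 fold changes between -0.86 and 0.45 over both passages and were not called.

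A further comparison set EMM against 2i/LIF, with the same 2i/LIF libraries as the first comparison. Dazl was lower in EMM, whereas Mael, Sycp3 and Ddx4 were higher at both passages. At P10, 4 of the 8 genes were called higher in EMM, namely Mael, Sycp1, Sycp3 and Ddx4, and 1 lower, Dazl, where 11% of all genes were called in each direction. At P20, 4 were called higher, namely Sycp3, Mael, Sycp2 and Ddx4, and Dazl again lower, where 16.0% and 9.39% of all genes were called. Some markers of primitive endoderm moved in the same comparison at P20, where 4 of 5 tested were called higher in EMM, with a sum over 6 markers of 8.34 to 13.5 CPM against 4.21 to 4.29 CPM in 2i/LIF, and at P10 1 was higher and 2 were lower. Their part in the result was not tested. Dazl differed by a log2 fold change of -2.47 ± 0.29 (adjusted p = 1.18e-06, edgeR) at P10 and -3.54 ± 0.30 (adjusted p = 9.02e-09) at P20. Mael differed by 3.68 ± 0.27 (adjusted p = 2.70e-09) and 2.66 ± 0.24 (adjusted p = 2.31e-08), and Sycp3 by 2.10 ± 0.19 (adjusted p = 3.36e-08) and 2.94 ± 0.17 (adjusted p = 7.51e-11). Asz1 had 76 counts in P20 2i/LIF and 1 in P20 EMM. At P10 it had 11 counts in 2i/LIF and 0 in EMM, which sets no fold difference at the floor of 3 counts per library (bound 0.95), while the counting interval taken against 0 counts began at 2.28. The change of this difference between passages was called for 0 of the 8 genes by edgeR, with 4 at an unadjusted p under 0.05 and 0 called by DESeq2, where 10.2% of all genes were called upward and 6.3% downward. The corresponding change for 2i/LIF against Serum/LIF was called for 1 gene, Sycp3, with a log2 value of 1.10 ± 0.25 (adjusted p = 0.00318), where 3.19% and 6.14% of all genes were called. That call was lost without P10 2i/LIF replicate 2, P10 Serum/LIF replicate 2 or P20 2i/LIF replicate 3, with log2 values from 0.98 to 1.00.

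The order of the group means for each gene shows which levels can be told apart. For Dazl, P20 2i/LIF (61.9 ± 27.0 CPM, SD, n = 3) and P10 2i/LIF (49.0 ± 21.2) overlapped in range and were separated by a gap from the other 4 groups, which lay between 5.34 and 8.69 CPM. For Ddx4, the order ran from P10 Serum/LIF (21.0 ± 1.41) through P20 Serum/LIF (16.9 ± 1.31), P20 EMM (14.7 ± 1.12) and P10 EMM (8.13 ± 0.934) to both 2i/LIF groups, and of these neighbours only the 2i/LIF groups overlapped. For Mael, both Serum/LIF groups (9.59 ± 2.32 and 11.8 ± 0.991) came first, both EMM groups (5.16 ± 0.0293 and 4.64 ± 0.741) next and both 2i/LIF groups last, and the groups of 1 medium overlapped in Serum/LIF and in EMM. For Sycp3, no neighbouring groups overlapped, from P20 EMM at the top (54.7 ± 6.58) to P10 2i/LIF (4.40 ± 0.598). For Hormad1 and Slc25a31, every group overlapped with its neighbours in the order.

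The third comparison set P20 against P10 within a medium. In Serum/LIF and in EMM 1 of the 8 genes was called, and each was higher at P20. In Serum/LIF this was Hormad1, where 1.17% of all genes were called higher and 0.673% lower. In EMM it was Sycp3 (5.59% higher and 2.95% lower over all genes). In 2i/LIF 0 of the 8 were called by edgeR (3.56% and 6.59% over all genes), with 3 at an unadjusted p under 0.05 and 0 called by DESeq2. Hormad1 had 4.38, 4.26 and 4.0 CPM at P10 and 7.80, 9.92 and 9.45 CPM at P20 in Serum/LIF, a log2 fold change of 1.10 ± 0.24 (adjusted p = 0.00546, edgeR). The groups did not overlap, but the call was lost without any 1 of the P10 Serum/LIF replicates (adjusted p = 0.0204, 0.0251 and 0.0228) and without P20 Serum/LIF replicate 2 (0.0294) or 3 (0.0193).

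Sycp3 rose between passages in EMM with a log2 fold change of 1.52 ± 0.16 (adjusted p = 1.07e-06, edgeR), and the libraries of the passages did not overlap. Ddx4 (0.87 ± 0.15, adjusted p = 0.000215) and Hormad1 (0.93 ± 0.24, adjusted p = 0.00498) passed the adjusted p in EMM but not the fold threshold, as did 13.3% of all genes in that direction, fold-passing genes included. Hormad1 passed both with library totals alone (log2 fold change 1.0) and without P10 EMM replicate 1 (1.08). In 2i/LIF, Asz1 had 0.402, 0.186 and 0.261 CPM at P10 and 1.66, 1.37 and 2.21 CPM at P20. These libraries did not overlap, which is no test, since only P20 2i/LIF brought the gene past the filter. Dazl did not pass the test between passages in any medium, with log2 fold changes of 0.61, -0.73 and 0.33 in Serum/LIF, EMM and 2i/LIF.

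The time course asked what happened to the genes within the first 24 h of EMM. The 8 genes stayed within the fold threshold at every time, with Mael the lowest relative to Serum/LIF at 9 and 24 h. By edgeR, 0 of the 8 were called at 3, 9 and 24 h, with 3, 4 and 4 at an unadjusted p under 0.05, and 0 were called by DESeq2. Over all genes, 1.7% were called higher and 2.52% lower at 3 h, 2.05% and 3.5% at 9 h, and 3.5% and 4.69% at 24 h. With 8 genes, 0 called is near this background and no result about the set. The surface protein gene Tex101 had fewer counts at 9 and 24 h, as given next.

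Tex101 had 0.287, 0.467 and 0.643 CPM in Serum/LIF and 0.313, 0.417 and 0.555 CPM at 3 h. It had 0.0307, 0.160 and 0.140 CPM at 9 h and 0.0327, 0.0708 and 0 CPM at 24 h, which is 38, 41, 10 and 3 counts in total over the 4 times. The Serum/LIF and 3 h libraries lay above all 9 h and 24 h libraries. This order is no test, since only Serum/LIF and 3 h brought the gene past the filter. At 24 h the gene was at the floor.

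Mael had 6.47, 8.15 and 7.95 CPM in Serum/LIF and 7.07, 8.34 and 9.05 CPM at 3 h. It had 3.96, 4.74 and 4.56 CPM at 9 h and 4.38, 4.04 and 3.75 CPM at 24 h, and these later libraries lay below all earlier ones. The log2 fold changes of -0.77 ± 0.12 at 9 h (adjusted p = 7.38e-05, edgeR) and -0.89 ± 0.12 at 24 h (adjusted p = 1.75e-05) passed the adjusted p but not the fold threshold. Over all genes, 19.7% were lower at 9 h and 22.2% at 24 h at the adjusted p alone. Set beside it, the value for EMM against Serum/LIF at P10, from other libraries, was -0.89. With the number in the deposited column names as a block, an alternative chosen after seeing the data, the value at 24 h was -1.01 and passed both thresholds.

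Ddx4 had 19.7, 18.2 and 19.9 CPM in Serum/LIF, 14.1, 14.7 and 13.8 CPM at 9 h and 16.9, 17.0 and 16.7 CPM at 24 h. Its log2 fold change of -0.44 ± 0.06 at 9 h (adjusted p = 1.50e-05, edgeR) and of -0.19 ± 0.06 at 24 h (adjusted p = 0.00947) passed the adjusted p alone. Hormad1 had 1.37, 1.81 and 2.02 CPM at 24 h, below the 2.29, 2.77 and 2.76 CPM of Serum/LIF, with a log2 fold change of -0.60 ± 0.15 (adjusted p = 0.00320). Sycp3 had 15.2, 17.9 and 16.6 CPM at 24 h against 19.9, 20.4 and 21.8 CPM, with a log2 fold change of -0.32 ± 0.09 (adjusted p = 0.00522). The time-course kit is not labelled directional, so reads from the bases that Sycp3 shares with Chpt1 cannot be told apart. Chpt1 had 8.96 ± 1.17 CPM in Serum/LIF and 10.1 ± 0.601 CPM at 24 h.

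Sycp1 was the one gene to pass the adjusted p in the upward direction, at 3 h. It had 3.69, 4.27 and 4.73 CPM in Serum/LIF and 5.85, 6.06 and 6.75 CPM at 3 h, with a log2 fold change of 0.56 ± 0.11 (adjusted p = 0.000898, edgeR), where 16.3% of all genes were higher at the adjusted p alone. At 9 and 24 h the log2 fold changes were 0.11 ± 0.12 and 0.25 ± 0.12, and neither passed (adjusted p = 0.456 and 0.0871). Dazl had 3.19, 3.44 and 3.97 CPM in Serum/LIF and 3.76, 4.61 and 3.86 CPM at 24 h, overlapping groups with a log2 fold change of 0.20 ± 0.13 (adjusted p = 0.194). Sycp2 and Slc25a31 had log2 fold changes between -0.27 and 0.54 over the 3 times and did not pass. Asz1 had 0, 1, 4 and 1 counts in total at 0, 3, 9 and 24 h and was not tested.

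**Figure D3:**
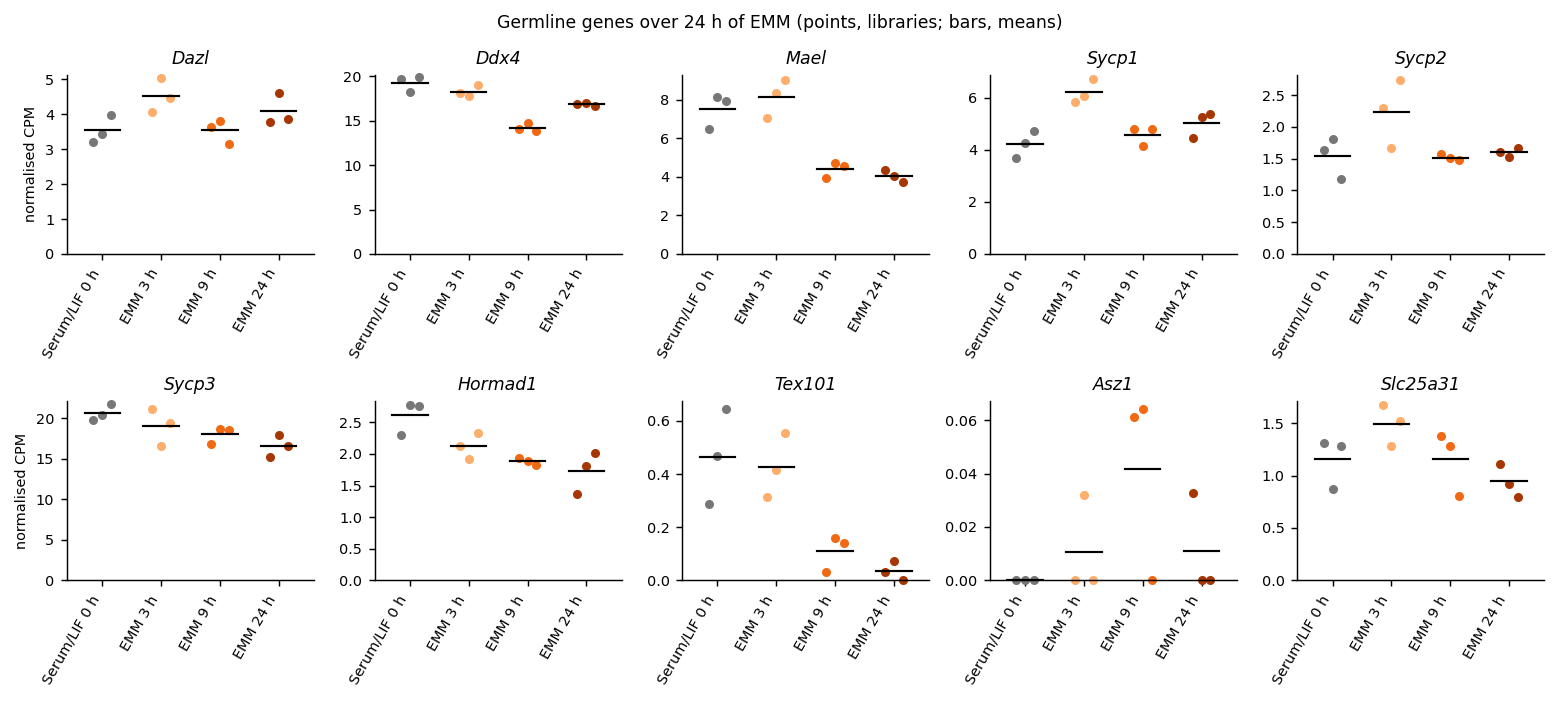
Normalised CPM of the 10 germline genes over 24 h in EMM (points, the 3 libraries of a time; bars, means; each panel has its own axis from 0). The means of Mael at 9 and 24 h lie below those at 0 and 3 h, whereas the Dazl libraries stay between 3.16 and 5.04 CPM. Those of Tex101 do so too, but only 0 and 3 h brought it past the filter on low counts.

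Other genes of the germline programme were read from a list of 44, of which 39 were tested in each experiment. Some, such as Syce3 and Meiob in the long-term cultures, reached the filter level in no 2i/LIF library, so the numbers called are a description. In the time course those that were called were lower in EMM. At 24 h, 18 of 39 (46.2%, against 4.69% of all genes) were called lower and 0 higher, with a median log2 fold change of -0.79 against 0.00 (8.9e-05) over all genes tested. At 9 h, 13 (33.3%, against 3.5%) were lower and 0 higher with a median of -0.84, and at 3 h 2 (5.13%, against 2.52%) were lower, Brdt and Meiob, which were named after their values were seen. The largest falls at 24 h were those of Nlrp14, an oocyte gene, from 1.19 to 0.252 CPM (log2 fold change -2.22 ± 0.24, adjusted p = 1.72e-06, edgeR), the testis tubulin gene Tuba3a (-1.88 ± 0.15, adjusted p = 6.32e-08) and the meiosis gene Tex11 (-1.84 ± 0.15, adjusted p = 6.37e-08). Some markers of primitive endoderm rose over the same hours, with 3 of 6 (50%, against 2.05% and 3.5% of all genes) called higher at 9 and at 24 h and 0 at 3 h. These were Sox7, Gata6 and Sox17, of which Sox7 went from 3.31 to 10.4 CPM at 24 h (1.65 ± 0.10, adjusted p = 4.77e-09). The list summed to 7.87 to 9.99 CPM in Serum/LIF and 18.7 to 19.6 CPM at 24 h, none of its 6 genes was at 0, and its part in the fall of the germline genes was not tested.

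In long-term EMM most of the other germline genes did not pass the test, and most of those that did were lower than in Serum/LIF. At P10, 10 of 39 (25.6%, against 10.5% of all genes) were called lower, 3 (7.69%, against 6.67%) higher and 26 neither, with a median log2 fold change of -0.59. At P20, 11 (28.2%, against 6.19%) were lower, 1 (2.56%, against 3.44%) higher and 27 neither, with a median of -0.79. Stra8, which is needed to enter meiosis, fell from 1.13 to 0.118 CPM at P10 (log2 fold change -2.97 ± 0.81, adjusted p = 0.00526, edgeR). Hormad2, a relative of Hormad1, fell from 2.82 to 0.350 CPM (-2.95 ± 0.36, adjusted p = 2.15e-06). Majin, which tethers telomeres to the nuclear envelope in meiosis, rose from 0.755 to 4.93 CPM (2.69 ± 0.25, adjusted p = 7.65e-08) and was also called higher at P20 (1.87 ± 0.23, adjusted p = 6.14e-06).

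In 2i/LIF the other germline genes that were called were split in direction. At P10, 10 of 39 were called higher and 10 lower (25.6% each, against 11.6% and 14.8% of all genes), with a median log2 fold change of -0.17 against 0.02 (0.018) over all genes. At P20, 5 were higher and 13 lower (12.8% and 33.3%, against 6.77% and 15.5%), with a median of 0.07. The largest changes at P10 were falls. Syce3, of the synaptonemal complex, had 0.933 CPM in Serum/LIF and 0.0310 CPM in 2i/LIF (log2 fold change -4.81 ± 0.80). It reached the filter level in no 2i/LIF library and had to differ between groups to be tested, so no test is given for it. The piRNA genes Tdrd1 (-3.23 ± 0.31, adjusted p = 6.74e-08, edgeR) and Mov10l1 (-3.09 ± 0.24, adjusted p = 4.57e-09) were also lower. Other piRNA genes went the other way at P10, with Fkbp6 at 14.1 CPM in 2i/LIF against 2.00 CPM in Serum/LIF and Tdrd12 at 90.2 against 64.6 CPM. The meiosis gene Rec8 had 79.9 against 14.5 CPM. Summed over the list, P10 2i/LIF libraries had 657 to 724 CPM and P10 Serum/LIF libraries 439 to 474 CPM.

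**Figure D4:**
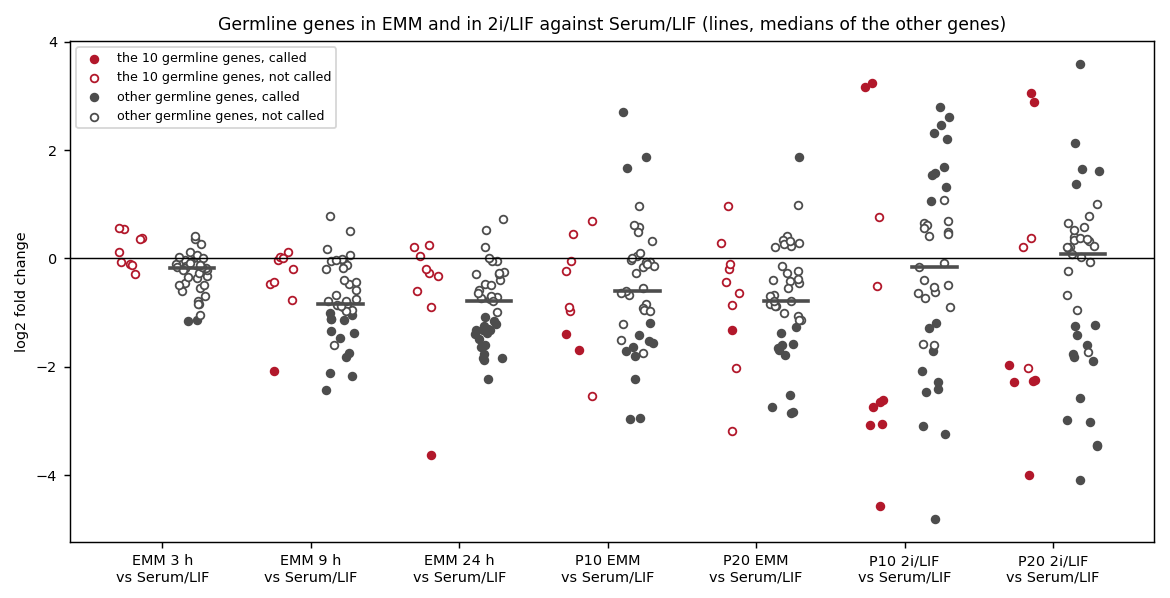
Log2 fold change (y axis) of the 10 germline genes (red) and of the 39 other germline genes tested (grey) against Serum/LIF in each EMM time and long-term culture; filled points passed both thresholds, except that those of Asz1 and Tex101, and of Syce3 in the long-term cultures, are no test, and lines are medians of the grey points. The grey medians in EMM lie between -0.18 at 3 h and -0.84 at 9 h, whereas in P10 2i/LIF both sets reach above 2 and below -4.

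The enzymes that write and erase DNA methylation were read as a list of 8. The de novo methyltransferase genes Dnmt3a and Dnmt3b and their cofactor gene Dnmt3l were lower in 2i/LIF. At P10, 4 of 8 were called lower and 0 higher (50% and 0%, against 14.8% and 11.6% of all genes), with Dnmt3l at 54.9 against 398 CPM (log2 fold change -2.88 ± 0.29, adjusted p = 9.96e-08, edgeR), Dnmt3b at 117 against 629 CPM (-2.42 ± 0.13, adjusted p = 2.98e-11) and Dnmt3a at 44.7 against 184 CPM (-2.06 ± 0.15, adjusted p = 1.85e-09). The other gene called lower was an eraser of the Tet family. Dnmt1, at 423 against 339 CPM, and Uhrf1, at 528 against 340 CPM, were not lower. At P20, 3 were lower and 1 higher (37.5% and 12.5%, against 15.5% and 6.77%), the latter being the maintenance cofactor gene Uhrf1 (1.18 ± 0.08, adjusted p = 6.88e-10). In P10 EMM, Dnmt3b was lower (-1.43 ± 0.13, adjusted p = 3.92e-08) and Dnmt3l higher (1.45 ± 0.27, adjusted p = 0.000197), 1 of 8 each way (12.5%, against 10.5% of all genes lower and 6.67% higher). In P20 EMM, 0 of the 8 were called by edgeR, with 3 at an unadjusted p under 0.05, where 3.44% of all genes were called higher and 6.19% lower, so that 0 of 8 is near the background.

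In the time course, Dnmt3a and Dnmt3b were called lower at 9 and 24 h, 2 of 8 genes (25.0%, against 3.5% and 4.69% of all genes). Dnmt3a went from 131 CPM in Serum/LIF to 83.0, 43.8 and 41.4 CPM at 3, 9 and 24 h, and Dnmt3b from 657 to 521, 253 and 237 CPM. At 24 h the log2 fold changes were -1.66 ± 0.05 (adjusted p = 4.56e-12, edgeR) and -1.47 ± 0.03 (adjusted p = 6.06e-14). Dnmt1, the maintenance methyltransferase gene, stayed at 465 and 475 CPM (0.03 ± 0.05, adjusted p = 0.591).

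Among 18 genes for repressors of germline promoters, at most 2 were called in any comparison with Serum/LIF. In P10 2i/LIF, 0 were called by edgeR (11.6% of all genes were higher and 14.8% lower), with 11 at an unadjusted p under 0.05 and a median log2 fold change of -0.13. In P10 EMM, 1 of 18 (5.56%, against 10.5% of all genes), Yaf2, was called lower (-1.41 ± 0.20, adjusted p = 1.15e-05, edgeR), and in the time course 0 were called at 3, 9 and 24 h, with 11, 13 and 10 at an unadjusted p under 0.05. Over all genes only 1.7% to 3.5% were called higher and 2.52% to 4.69% lower there, so 0 of 18 is near the background and no result about these genes. E2f6 had 32.8, 19.9 and 30.0 CPM in P10 Serum/LIF, EMM and 2i/LIF. Mga, which encodes the scaffold of the complex, had 197, 263 and 368 CPM in the same order. In P20 2i/LIF, Yaf2 was lower (-1.46 ± 0.20, adjusted p = 7.11e-06) and Wdr5 higher (1.17 ± 0.07, adjusted p = 1.72e-10), 1 of 18 each way (5.56%, against 15.5% and 6.77% of all genes).

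Markers of early germ cells were followed as a list of 6. The list is not particular to germ cells, since the study counts TFAP2C among factors of pluripotency and the inner cell mass. Dppa3, which protects the maternal genome from demethylation, had a mean of 44.5 CPM in P10 Serum/LIF, 51.1 CPM in P10 2i/LIF and 0.482 CPM in P10 EMM, and fell by 6.62 on the log2 scale in EMM (adjusted p = 6.10e-08, edgeR). Kit, a receptor gene of germ cells that has the most counts of the list, had 74.8, 224 and 18.4 CPM in the same order. Kit was called higher in 2i/LIF (1.59, adjusted p = 3.29e-08) and lower in EMM (-2.0, adjusted p = 1.28e-08), and Prdm14 was higher in 2i/LIF (1.82, adjusted p = 1.25e-09). Nanos3, at low counts, was called higher in both, with 0.196 CPM in P10 Serum/LIF, 1.22 CPM in 2i/LIF (2.61, adjusted p = 0.000157) and 0.796 CPM in EMM (1.86, adjusted p = 0.00748), and Tfap2c was called lower in EMM (-1.51, adjusted p = 9.15e-09). In 2i/LIF, 3 of the 6 markers were thus higher and 0 lower at P10 (11.6% and 14.8% of all genes), and 1 was higher and 0 lower at P20 (6.77% and 15.5%). In EMM, 1 was higher and 3 lower at P10 (6.67% and 10.5%), and 0 were higher and 3 lower at P20 (3.44% and 6.19%). Summed over the list, the germ cell markers had 293 to 522 CPM in 2i/LIF and 198 to 212 CPM in Serum/LIF. In EMM the sum was 53.8 to 63.9 CPM at P10 and 144 to 157 CPM at P20. Markers of the two-cell state moved in their own pattern, with a sum over 8 genes of 15.2 to 89.8 CPM in long-term Serum/LIF, 21.4 to 62.0 CPM in P10 2i/LIF, 0.804 to 3.99 CPM in P20 2i/LIF and at most 4.98 CPM in EMM. The part of such cells in the levels of the 10 genes was not tested.

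Across the 18 long-term libraries, the genes whose log2 CPM followed Dazl most closely were Usp46 (Pearson r = 0.972), Ly6c2 (0.971) and Gm53 (0.971). Usp46 had 58.0 and 59.7 CPM in P10 and P20 2i/LIF and 18.8 to 27.3 CPM in the other groups, and Gm53 had 35.2 and 28.9 CPM against 2.35 to 4.78 CPM. The mean standardised profile of the 10 genes was followed most closely by Slc43a3 (r = 0.938), D2hgdh (0.923) and P2rx3 (0.92). Within the set, Mael (r = 0.812), Sycp2 (0.772), Tex101 (0.765), Ddx4 (0.749), Sycp1 (0.718) and Sycp3 (0.713) had the highest values, Slc25a31 (0.378) and Hormad1 (0.21) lay between, and Asz1 (-0.172) and Dazl (-0.538) were below 0. Each gene is itself part of that mean, which raises its own value. The mean also holds Asz1 and Tex101, which the filter on low counts chose by their difference. The 18 libraries fall into 6 groups, so these correlations describe the medium and passage differences and carry no test.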

How the data were processed

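E14tg2a mESC RNA-seq libraries were grouped by their labels, 18 from long-term cultures (6 groups) and 12 from the time course (4 groups). For the long-term cultures, the authors deposited estimated counts per gene, not normalised; 9.982% were not whole and all were rounded. Time-course values were deposited as whole counts. The submitters' processing notes name STAR, mm10 and either Salmon (long-term) or featureCounts (time course), and tool versions are not given in the sources used here. Fold changes, RPKM and CPM were computed here.

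Genes were filtered (filterByExpr), scaled with TMM and tested with edgeR 4.0.16 (R 4.3.3) in one model per experiment without covariate. Called genes had a log2 fold change beyond 1 in either direction and a Benjamini-Hochberg adjusted p under 0.01. CPM used effective library sizes; RPKM used merged exon lengths of GENCODE M21 (GRCm38). Counting intervals (95%, exact binomial) and the floor of 3 counts cover counting error only. Totals and floors limit Asz1 and Tex101 most. Alternatives were other scalings, filters and thresholds, DESeq2 1.42.0, fits of the compared groups, a replicate block and leaving out replicates. Methods were tested on simulated data.

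Members and gene lists were chosen with earlier results of these data known. Named genes were all 10 members, the 3 largest changes past the thresholds per further list in P10 2i/LIF, P10 EMM and 24 h EMM against Serum/LIF, the 3 nearest profiles, and abundant markers. Other genes named were chosen after their values were seen. Whether same-numbered replicates pair was checked from the correlation of their deviations: all 3 pairs of P10 and P20 2i/LIF lay between 0.134 and 0.299 and were taken as paired, and in no other pair of groups did all 3 exceed 0.1. The main model held no replicate block, so the results given for 2i/LIF between passages ignore this pairing. All replicates differed beyond sampling noise.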

Additional observations from a re-analysis of the deposited data

Results flagged for a closer look

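The following 3 differences between media changed with passage by a test of the change itself (edgeR's interaction contrast). For Sycp3, EMM against Serum/LIF differed between P20 and P10 by 1.94 on the log2 scale (adjusted p = 3.75e-06), from below Serum/LIF at P10 to above it at P20. For Ddx4, the same contrast differed by 1.19 (adjusted p = 0.000333), and the gene lay below Serum/LIF in P10 EMM and near it in P20 EMM. For Sycp3, 2i/LIF against Serum/LIF differed by 1.10 (adjusted p = 0.00318), a smaller distance at P20, and this call was lost without P10 2i/LIF replicate 2 (adjusted p = 0.012), P10 Serum/LIF replicate 2 (log2 value 0.98) or P20 2i/LIF replicate 3 (adjusted p = 0.0117). The cause was not tested.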

How the results depend on the processing

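The following counts are of all 10 genes, Asz1 and Tex101 included although the filter chose them by their difference. Without a fold threshold, the count went from 2 to 4 for P10 EMM against Serum/LIF, from 1 to 2 for the same at P20, from 1 to 3 for EMM between passages, from 0 to 1 for the passage change of EMM against 2i/LIF, and to 1, 3 and 5 at 3, 9 and 24 h. With library totals alone it was 4 for P10 EMM, 2 for P20 EMM and 2 for EMM between passages. With no filter it was 4, 2 and, for the passage change of EMM against 2i/LIF, 1. Requiring 10 counts in every library left 3 genes called in each comparison with 2i/LIF at P10 and P20, and 0 for P20 EMM against Serum/LIF, 2i/LIF between passages, 9 h and 24 h; fewer members are tested under this filter. With only the compared groups it was 2 for P20 EMM and 0 at 9 h and at 24 h. With an adjusted p under 0.05 it was 3 for P20 EMM, 4 for the passage change of EMM against Serum/LIF and 1 for that of EMM against 2i/LIF. With a limit of 10 counts, 12 rather than 5 combinations of gene and group in the long-term cultures were at the floor.

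Leaving out 1 library gave 1 to 4 (P10 EMM against Serum/LIF), 1 to 3 (P20), 6 to 7 and 7 to 8 (2i/LIF against Serum/LIF at P10 and P20), 5 to 6 (P10 EMM against 2i/LIF), 0 to 1 (Serum/LIF between passages), 1 to 2 (EMM and 2i/LIF between passages), 0 to 1 (passage changes of 2i/LIF against Serum/LIF and of EMM against 2i/LIF) and 0 to 1 (9 h). Where not stated, the cause was not tested. Over all alternatives, 678 values of single genes kept their direction and side of the threshold, 27 no longer passed, 15 came to pass, 2 moved and 0 reversed.

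With the replicate number as a block, 7 rather than 8 genes were called for P10 2i/LIF against Serum/LIF, Asz1 being lost (adjusted p = 0.0113), and 7 rather than 6 for EMM against 2i/LIF at P10 and at P20. With the 2i/LIF groups alone, whose numbers pair (0.134 to 0.299), a replicate block left 1 gene called between passages, as without it, and this gene was Asz1. The time-course titles and column names number the samples differently. With the column numbers as a replicate block, added after seeing the data, 2 rather than 1 genes were called at 24 h, Mael with a log2 fold change of -1.01 being the added gene, and counts at 3 and 9 h were unchanged. By column number Serum/LIF shares only 2 pairs with each time, which correlated between -0.132 and 0.28. Blocks moved no other count by over 1.5 times. Few counts limit Asz1 and Tex101 throughout.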
